A study of Mus musculus with 5 samples.

Results

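The bins described here are the 10 kb stretches of the genome in which a single mouse hepatocyte was called more methylated than a pool of liver cells. They are the entries with a column 5 minus column 4 of 10000 in the methylation lists of 4 hepatocytes, 201 of the 1476 calls of that width in the series. The other 1275 are called loss bins below, where a cell was less methylated than the pool, and the 201 are called gain bins. Cell 1 had 26 gain bins, cell 2 had 83, cell 3 had 79 and cell 4 had 13, and because 4 bins were called in a pair of cells, 197 of them were different. Membership and score come from the same call against the pool, so counts and scores are descriptions without a test. The 5 short entries of the same lists, 100 bp wide, fell outside the width rule.

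Methylation was read by reduced representation bisulfite sequencing, in which a restriction enzyme (here MseI) selects a fraction of the genome and bisulfite marks unmethylated cytosines. The liver cells were taken from C57BL/6 mice, an inbred laboratory strain, after collagenase perfusion of the liver, and the hepatocytes were picked singly by hand with capillaries. As carrier, 2 ng of salmon DNA went into the libraries of cells 1 and 2, and 2 ng of tRNA cDNA into those of cells 3 and 4. The reference was a liver cell pool of the same strain. The labels name neither the age nor the number of the mice, nor the animal behind a cell. Each cell is 1 library, and several may come from 1 animal. The lists hold calls but no expression and no level of the pool, so the hepatocyte label could not be set against marker genes. Depth and covered bins are unknown, and a bin absent from a list may have been unread.

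In mammals, methyl groups sit mainly on cytosines that are followed by guanine (CpG sites) and are copied to the new strand after replication by the maintenance methyltransferase. The bodies of transcribed genes and most sequence between genes are usually methylated, whereas CpG-rich promoters are usually not. A pool reports an average over many cells, and liver tissue holds endothelial cells, macrophages, stellate cells and biliary cells beside the hepatocytes. Bisulfite sequencing also does not separate 5-methylcytosine from 5-hydroxymethylcytosine.

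Of the gain bins, 44 held the stretch before a gene start for which a RefSeq promoter sequence (GRCm38.p6) was at hand. The 250 bases before the start are shown for 8 of them, 5′ to 3′ on the gene's strand, with CpG sites in capitals. They were chosen to show what kind of promoter lay in gain bins: one in a bin called in 2 cells (the non-coding Gm15564, chr16:35981848-35982097), one in a bin that overlapped a loss bin of every cell (Rit1, chr3:88716604-88716853) and one beside a loss bin (Son, chr16:91647574-91647823). Next come a very CpG-rich promoter (Tfdp1, chr8:13338501-13338750), a signalling kinase (Gsk3b, chr16:38088751-38089000) and a proto-oncogene (Mycn, chr12:12941837-12942086), and last the only windows without a CpG (Olfr1367, chr13:21346680-21346929, and Samt4, chrX:154481752-154482001).
Gm15564: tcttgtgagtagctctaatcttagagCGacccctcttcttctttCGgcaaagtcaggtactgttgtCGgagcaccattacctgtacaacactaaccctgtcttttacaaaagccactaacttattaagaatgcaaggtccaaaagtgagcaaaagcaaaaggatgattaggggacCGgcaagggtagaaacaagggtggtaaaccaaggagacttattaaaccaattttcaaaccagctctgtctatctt
Rit1: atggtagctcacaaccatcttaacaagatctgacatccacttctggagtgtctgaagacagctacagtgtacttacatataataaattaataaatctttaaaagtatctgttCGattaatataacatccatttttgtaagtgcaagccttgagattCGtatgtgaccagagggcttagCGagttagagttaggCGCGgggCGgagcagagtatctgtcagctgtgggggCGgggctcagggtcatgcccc
Son: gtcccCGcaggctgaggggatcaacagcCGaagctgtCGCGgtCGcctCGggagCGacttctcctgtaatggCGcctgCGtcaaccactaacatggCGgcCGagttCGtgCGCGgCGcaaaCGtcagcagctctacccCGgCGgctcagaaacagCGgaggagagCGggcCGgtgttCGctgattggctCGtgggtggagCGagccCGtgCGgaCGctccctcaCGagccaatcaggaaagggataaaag
Tfdp1: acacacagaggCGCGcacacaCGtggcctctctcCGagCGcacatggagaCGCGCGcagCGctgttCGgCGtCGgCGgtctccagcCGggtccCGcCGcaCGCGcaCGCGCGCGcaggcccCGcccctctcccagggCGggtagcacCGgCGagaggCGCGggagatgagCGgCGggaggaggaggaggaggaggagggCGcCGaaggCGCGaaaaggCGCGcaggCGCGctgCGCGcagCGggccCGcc
Gsk3b: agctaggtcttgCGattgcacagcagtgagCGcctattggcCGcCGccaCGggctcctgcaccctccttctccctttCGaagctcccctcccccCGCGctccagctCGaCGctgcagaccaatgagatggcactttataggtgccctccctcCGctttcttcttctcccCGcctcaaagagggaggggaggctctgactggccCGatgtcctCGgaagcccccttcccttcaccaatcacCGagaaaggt
Mycn: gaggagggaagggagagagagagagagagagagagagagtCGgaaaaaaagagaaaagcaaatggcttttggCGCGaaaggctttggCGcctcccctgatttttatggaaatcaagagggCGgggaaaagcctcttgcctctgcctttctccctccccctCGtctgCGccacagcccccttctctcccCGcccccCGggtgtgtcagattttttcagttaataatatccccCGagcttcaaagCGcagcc
Olfr1367: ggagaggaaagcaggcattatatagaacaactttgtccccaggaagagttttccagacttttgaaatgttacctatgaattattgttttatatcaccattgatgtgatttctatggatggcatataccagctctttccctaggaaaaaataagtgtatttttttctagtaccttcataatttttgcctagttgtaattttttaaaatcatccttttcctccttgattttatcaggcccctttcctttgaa
Samt4: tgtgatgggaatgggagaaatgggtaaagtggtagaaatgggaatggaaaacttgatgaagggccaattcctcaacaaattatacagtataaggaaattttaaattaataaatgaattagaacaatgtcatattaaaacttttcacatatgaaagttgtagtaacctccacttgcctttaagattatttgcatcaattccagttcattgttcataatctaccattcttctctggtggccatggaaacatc

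Windows in gain bins ranged from CpG-free to CpG-dense. The motif CG, which reads the same on both strands, occurred 42 times in the Tfdp1 window, 28 times in that of Son, 15 times at Gsk3b, 11 times at Mycn, 7 times at Rit1 and 4 times in the Gm15564 window shown. Gm15564 has 2 further windows in the same shared bin, from other start sites, 1 with 4 CpG sites and 1 with 32 (chr16:35983330-35983579). Tfdp1 has a second window in its bin that overlaps the one shown (chr8:13338554-13338803), with 49 CpG sites. Over the 64 window calls in gain bins (61 different windows of 51 genes), the median was 14.5 CpG sites. Overlapping windows of 1 gene were counted separately. It was 9 over the 291 window calls in loss bins and 6 over all 30970 windows on the chromosomes used. At least one CpG was present in 96.9% of the windows in gain bins, 96.2% of those in loss bins and 92.2% of all windows. Windows with 10 or more made up 56.2%, 49.5% and 38.1%. The MseI site TTAA, also the same on both strands, was present in 45.3% of windows in gain bins, 40.5% in loss bins and 48.9% of all windows. Because the assay must cover a bin before it can be called, the windows of called bins are not a sample of all windows, and the call describes 10 kb, not the window.

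**Figure D1:**
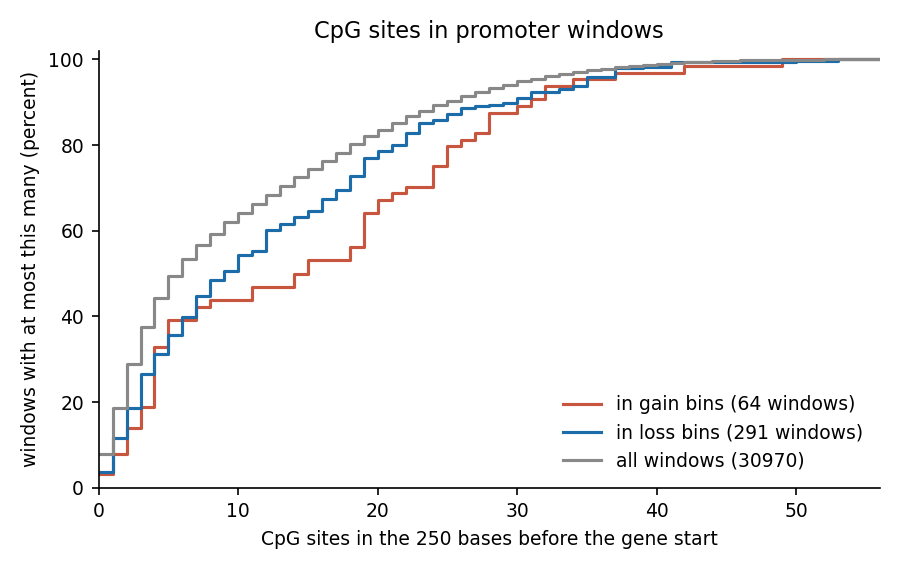
Cumulative percent of promoter windows (vertical axis) against the number of CpG sites in the 250 bases before the gene start (horizontal axis), for windows in gain bins, windows in loss bins and all windows of the table. Through the middle of the plot the gain curve runs below the other 2, with a median of 14.5 sites against 9 and 6, and at few sites it crosses the loss curve.

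The CpG difference between gain and loss bins was not the same in every cell. Mean CpG per window was 13.5 in gain and 13.1 in loss bins of cell 1, 15.2 and 11 in cell 2, 16.2 and 13.6 in cell 3, and 7.5 and 15.6 in cell 4, where gain bins held only 2 windows. Gain bins were higher in 3 of 4 cells, with a mean difference of -0.23 (SD 5.49, n = 4 cells, two-sided exact sign-flip permutation test, adjusted p = 1). Without cell 4 the difference was 2.40.

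The deposited score, on a scale up to 1000 that the sources used here do not define, was between 773 and 1000 in gain bins. In cell 1 the lowest, median and highest scores were 846, 864.5 and 917. In cell 2 they were 773, 833 and 933, in cell 3 they were 792, 833 and 1000, and in cell 4 they were 786, 833 and 923. Cell 1 thus lacked the low scores that the others had, and the other 3 cells shared 1 median. Only 28 different values occurred in all, and 833 (33 calls), 818 (26 calls), 846 and 909 (20 calls each) were the commonest. Scores of 900 or more were held by 8 gain bins of cell 1 (30.8%), 13 of cell 2 (15.7%), 14 of cell 3 (17.7%) and 2 of cell 4 (15.4%). The highest loss scores were 714, 683, 688 and 636 in cells 1 to 4, below the lowest gain score of each cell.

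**Figure D2:**
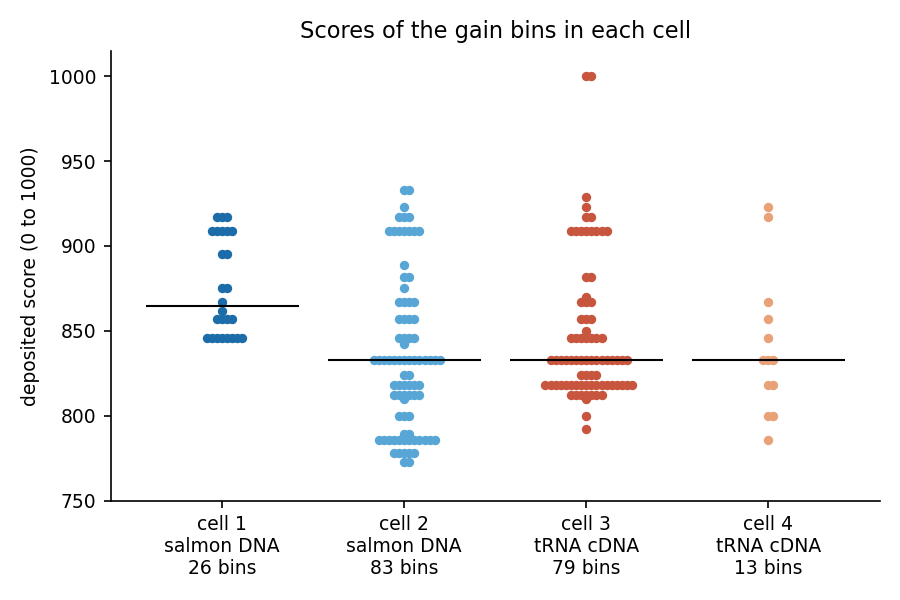
Deposited score (vertical axis, which does not start at 0) of each gain bin, one point per bin, for the 4 cells (horizontal axis, with carrier and number of bins), with the median as a line. The points of cell 1 start at 846, those of the other cells between 773 and 792, and only cell 3 reaches 1000.

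Few gain bins were called in more than 1 cell. Of the 197 different gain bins, 4 were called in a pair of cells (2.03%), and of the 992 different loss bins 197 were called in more than 1 cell (19.9%). The number of calls differs between the directions and between cells, and the difference in sharing was not tested. The bin chr2:5295000-5305000 lay inside Camk1d (chr2:5293457-5714860), a calcium- and calmodulin-dependent kinase, close to one end of the gene, with scores of 846 in cell 1 and 812 in cell 2. The bin chr11:108868000-108878000 lay inside the non-coding Gm46298 with 862 in cell 1 and 867 in cell 2. At chr16:35976000-35986000, where the non-coding Gm15564 and the nuclear import receptor Kpna1 meet with their ends, the scores were 846 and 833 in the same cells. The bin chr12:98294000-98304000 scored 867 in cell 2 and 923 in cell 4; no gene lay within 2000 bp of it, and the nearest was Gpr65, a proton-sensing receptor, at a distance of 17.3 kb. Of the 4 pairs of scores, only the last differed by more than the SD of all gain scores (43.7). All gain scores lay between 773 and 1000, so this does not measure agreement between cells.

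A further place came back in an overlapping bin. In the non-coding gene Gm38708, chr6:88138000-88148000 of cell 1 (score 917) and chr6:88143000-88153000 of cell 2 (score 778) shared 5 kb. Cells 1 and 2 therefore had gains at 4 common places, and all of the 5 genes touched by more than 1 gain call (Camk1d, Kpna1, Gm15564, Gm46298 and Gm38708) were touched in this pair of cells. Gain bins of the same cell never overlapped. Counting identical and overlapping bins, 12 pairs of gain calls lay within 200 kb of each other, 9 in different cells and 3 in the same cell.

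The pairs that did not overlap were spread over 6 chromosomes. Cell 2 had chr18:31764000-31774000 in Ammecr1l (score 867) and, 14 kb further on, chr18:31788000-31798000 around the RNA polymerase II subunit gene Polr2d (score 909). It also had chr15:76194000-76204000 in Plec, the cytoskeletal linker plectin (score 909), and chr15:76345000-76355000 around Cyc1, Sharpin and Maf1 (score 833) at a gap of 141 kb. In cell 3, chr17:26640000-26650000 in Ergic1, a protein of the early secretory pathway (score 812), was followed after 158 kb by chr17:26808000-26818000 (score 909), whose nearest gene was Bnip1. On chromosome 11, bins of cell 3 at H3f3b with Unk (chr11:116024000-116034000, score 846) and at Srp68 (chr11:116268000-116278000, score 812) stood on either side of the cell 2 bin at Fbf1 (chr11:116139000-116149000, score 833), at gaps of 105 and 119 kb. The closest such pair of different cells lay on chromosome 3, with 27 kb between the bin of cell 2 at Rit1 and that of cell 3 at Syt11. On chromosome 8, chr8:107893000-107903000 of cell 2 (score 923) lay 75 kb from chr8:107808000-107818000 of cell 3 (score 824).

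Gain bins lay on all 19 chromosomes analysed; chromosome 10 was not analysed here. Chromosomes 2 and 11 had the most, 17 each, and X the fewest, with 2. As a share of gain and loss bins together, gains made up 13.6% over all chromosomes. They ranged from 6.45% on X and 7.06% on chromosome 12 to 20.5% on chromosome 14 and 22.6% on chromosome 16, where 12 of 53 bins were gains. The counts are small, with 2 gains beside 29 losses on X and 8 beside 31 on chromosome 14. Differences between chromosomes were not tested.

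Each bin was assigned a place by its midpoint: gene end where it fell up to 1000 bp from where a gene starts or stops, gene body where it fell elsewhere inside a gene, and otherwise between genes. Of the 201 gain bins, 22 had their midpoint at a gene end (10.9%, exact 95% interval 6.99 to 16.1%), 110 in a gene body (54.7%, 47.6 to 61.7%) and 69 between genes (34.3%, 27.8 to 41.3%). These intervals cover counting error only. The share in genes was 69.2% in cell 1, 65.1% in cell 2, 68.4% in cell 3 and 46.2% in cell 4, where 6 of 13 bins were genic (interval 19.2 to 74.9%). The intervals of the 4 cells overlapped. Over all cells the median score was 833 in gene bodies, 825.5 at gene ends and 842 between genes. By cell, gene ends had the lowest median in cells 1, 2 and 4 (846, 786 and 800, on 2, 8 and 1 bins). In cell 3 gene bodies had the lowest, with 824 against 833 at gene ends (11 bins). Differences in score between places were not tested.

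**Figure D3:**
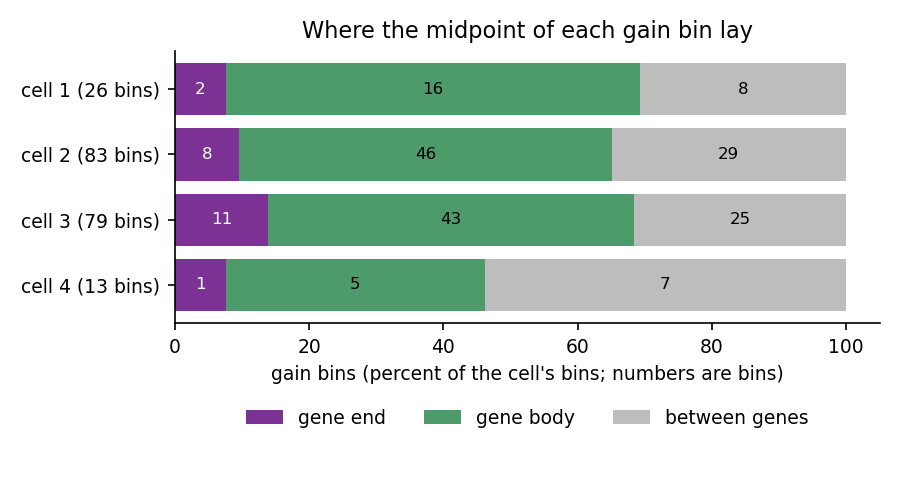
Percent of the gain bins of each cell (horizontal axis) with their midpoint between genes, in gene bodies or at gene ends, 1 bar per cell, with the number of bins written in. Gene bodies take the largest part in cells 1 to 3 (16, 46 and 43 bins) and sequence between genes in cell 4 (7 of 13).

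Loss bins of the same cells gave 65.3% in genes over all calls, against 65.7% for gain bins. Taken cell by cell, the share in genes was higher in gain bins of 2 cells and lower in 2, with a mean difference of -3.05 percentage points (SD 13.6, n = 4 cells, two-sided exact sign-flip permutation test, adjusted p = 1). With 4 cells this test cannot go below 0.12, so no difference between gain and loss could pass 0.05, and the p-values were adjusted over 5 measures. Without cell 4 the sign turned (3.49 percentage points). The number of genes within 500 kb averaged 30.3 for gain and 30.3 for loss bins, again with 2 cells on either side (difference -0.03, SD 4.90, exact permutation test, adjusted p = 1). Without cell 3 or without cell 4 this difference was 0.47 or 1.88, and with medians in place of means it was 0.12.

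The longest gene touched by a bin was shorter on average for gain bins than for loss bins. A gene is called touched where the bin overlaps it or the 2000 bp on either side of it. The longest touched gene averaged 91.7 kb for gain bins and 149 kb for loss bins in cell 1, and 86.5 and 154 kb in cell 2. In cells 3 and 4 the averages were 129 and 149 kb, and 40.5 and 134 kb. Gain bins were lower in 4 of 4 cells, by a mean of 59.6 kb (SD 30.5, n = 4 cells, two-sided exact sign-flip permutation test, p = 0.12, the smallest possible, adjusted p = 0.312). With medians per cell the difference was -7.28 kb (adjusted p = 1, exact permutation test), far smaller than with means. What very long genes add to the means was not tested.

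Altogether 226 genes were touched by a gain bin, 0.478% of the 47283 annotated on the chromosomes used, and loss bins touched 2.09%. Of the 226, 149 were protein-coding, 51 long non-coding RNA genes, 14 pseudogenes, 6 small nucleolar RNA genes and 3 tRNA genes. The 149 are 0.722% of all protein-coding genes (3.4% for loss bins), and among protein-coding genes of 100 kb or more the share was 1.62% (8.57% for loss bins). The bin lay inside 69 of the protein-coding genes, covered an end of 60, held 10 whole and lay beside 10. They ran from 0.951 kb (Olfr1367) to 1433 kb (Gpc5). Their median length was 39.8 kb, that of protein-coding genes touched by loss bins 41.8 kb and that of all protein-coding genes 17.3 kb. The touched genes are described next by what they are known to do. The groups were formed after the genes were seen and none was tested.

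Kinases and signalling adaptors were the second largest group, with 16 genes in 16 bins, 8 of them called in cell 2 and 7 in cell 3. Beside Camk1d, cell 2 had bins inside 2 mitogen-activated kinase kinase kinases, Map3k20 (chr2:72332000-72342000, score 833) and Map3k11 (chr19:5691000-5701000, score 909). It also had bins inside the salt-inducible kinase Sik2 (chr9:50906000-50916000, score 846) and in Ulk4 (chr9:121202000-121212000, score 909), which encodes a pseudokinase. The bin chr1:74848000-74858000 held the whole of Cdk5r2, an activator of the kinase Cdk5 (score 786). Bins inside Skap1, a T-cell adaptor (chr11:96718000-96728000), and Arpp21, a cAMP-regulated phosphoprotein (chr9:112132000-112142000), scored 786 each.

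Cell 3 had the other large share of this group. Gsk3b, the glycogen synthase kinase that also phosphorylates beta-catenin, had the bin chr16:38085000-38095000 over its start (score 833). Dvl3, a Dishevelled protein that passes on Wnt signals, was touched by chr16:20512000-20522000 (score 812), and Dact3, which binds Dishevelled, by chr7:16875000-16885000 (score 818). Grb2, the adaptor that links receptor tyrosine kinases to Ras, held chr11:115680000-115690000 (score 824). Atm, the kinase of the DNA double-strand break response, held chr9:53509000-53519000 (score 818), and Speg, a striated muscle kinase, held chr1:75414000-75424000 (score 846). Akap1, which anchors protein kinase A at mitochondria, was touched at chr11:88855000-88865000 (score 846). The SH2 domain gene Sh2d7 shared its bin of cell 4 with Cib2 (chr9:54542000-54552000, score 833).

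Among receptors and ligands, 9 genes in 8 bins were touched, 5 bins in cell 2 and 3 in cell 3. Notch1, a receptor of cell-to-cell signalling, held chr2:26490000-26500000 (score 909), and Kdr, the VEGF receptor of endothelial cells, held chr5:75966000-75976000 (score 812). The ephrin receptor gene Epha8 was touched at chr4:136921000-136931000 (score 882) and Gfra2, a receptor for the neurotrophic factor neurturin, at chr14:70940000-70950000 (score 909). All of these were bins of cell 2, as was chr15:89325000-89335000 at Adm2, a peptide hormone, and Miox (score 778). In cell 3, bins lay inside Nrp2, a semaphorin and VEGF co-receptor (chr1:62744000-62754000, score 833), and Hhip, which binds Hedgehog ligands (chr8:80036000-80046000, score 867). The bin chr19:4143000-4153000 touched the orphan receptor gene Gpr152 and Ptprcap with Cabp4 and Coro1b (score 812).

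Small GTPases, G proteins and their regulators counted 8 genes in 8 bins. Cell 1 had bins in Gnb4, a G protein beta subunit (chr3:32603000-32613000, score 895), and at Arhgef11, an activator of RhoA (chr3:87729000-87739000, score 895). Rit1, a Ras-related GTPase, and Rab11fip3, an effector of Rab11 (chr17:26000000-26010000, score 812), were touched in cell 2. The related genes Sipa1l2 (chr8:125561000-125571000, score 833, cell 2) and Sipa1l3 (chr7:29512000-29522000, score 818, cell 3) both had a gain bin over a gene end. Elmo2, which acts in Rac activation (chr2:165313000-165323000, score 833), and Tbc1d31 (chr15:57903000-57913000, score 909) were touched in cell 3.

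The ubiquitin system, which tags proteins for degradation, was represented by 10 genes in 10 bins with scores of 786 to 1000. Cbl, the ligase that removes activated receptor tyrosine kinases, held chr9:44164000-44174000 in cell 3, 1 of only 2 bins with the score 1000. Wwp1, a HECT ligase, held chr4:19631000-19641000 in the same cell (score 818). Fbxo11, a substrate adaptor, lay beside chr17:88067000-88077000 (score 824), which was inside the non-coding Gm45950. In cell 1 the genes were the ligases Rnf144b (chr13:47133000-47143000, score 909) and Ubr4, whose start was in chr4:139372000-139382000 together with an end of Emc1 (score 857). In cell 2, Lztr1, an adaptor that hands Ras-related GTPases to a cullin ligase, shared chr16:17525000-17535000 with Thap7 at the joint highest score of the cell (933). Rit1, a known substrate of that adaptor, also had its gain in cell 2. Further genes of this cell were the deubiquitinase Usp46 (chr5:74037000-74047000, score 786), Faf1, which binds ubiquitinated proteins (chr4:109690000-109700000, score 889), Zfand2a (chr5:139464000-139474000, score 789) and Sharpin, a part of the linear ubiquitin ligase.

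Transcription factors and cofactors numbered 15 in 13 bins, 6 of them in cell 3. The partners of E2F, Tfdp1 and Tfdp2, were both touched there. Tfdp2 held chr9:96259000-96269000 in its body with the score 1000, and Tfdp1 had chr8:13334000-13344000 over its start with 833. Lin54, the DNA-binding part of the complex that represses cell cycle genes in resting cells, held chr5:100462000-100472000 (score 818). Cell 3 also had bins inside Srebf2, the master regulator of cholesterol synthesis (chr15:82179000-82189000, score 833), inside the imprinted zinc finger gene Zim1 (chr7:6678000-6688000, score 917) and at Tle7 (chr8:110107000-110117000, score 850).

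Of the factors touched in the other cells, 5 were zinc finger genes of the Zfp series. Cux1, a homeobox factor, held chr5:136249000-136259000 in cell 2 (score 917), and the bin chr7:5027000-5037000 of that cell touched Zfp865, Zfp784 and Zfp580 together (score 867). In cell 1 Elf2, an ETS factor, held chr3:51282000-51292000 (score 909), while Zfp37 (chr4:62180000-62190000) and Zfp369 (chr13:65272000-65282000) had bins over a gene end with 846 each. Mycn, a proto-oncogene of the Myc family, was touched in cell 4 by chr12:12941000-12951000 (score 800).

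Genes of chromatin, polymerases and replication made up 10 bins, 6 in cell 2 and 4 in cell 3. Ep400, the motor of a chromatin remodelling complex, held chr5:110693000-110703000 (score 800), Rere, a corepressor, held chr4:150498000-150508000 (score 846), and Rybp, a Polycomb component, held chr6:100231000-100241000 (score 800), all in cell 2. Maf1 represses RNA polymerase III, and Rfc4, a clamp loader subunit, lay beside the bin at Eif4a2. In cell 3, H3f3b, which encodes histone H3.3, had its start in the bin shared with Unk. The centromere protein gene Cenpb lay whole within chr2:131173000-131183000, with an end of Spef1 (score 810). Rad21l, a meiotic cohesin gene, was touched at chr2:151663000-151673000 (score 824), and Gtf3c1, a subunit of the polymerase III factor TFIIIC, held chr7:125671000-125681000 (score 818).

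RNA, translation and nuclear transport gave 13 genes in 13 bins, of which 7 lay at a gene end. In cell 2 the start of Eif4a2, a translation initiation helicase, lay in chr16:23103000-23113000 with 5 small nucleolar RNA genes, among them Snord2 and Snora81 (score 786). The ribosomal protein gene Rps28 lay whole in chr17:33817000-33827000 with ends of Kank3 and Ndufa7 (score 833). Son, a splicing cofactor, and Gart, an enzyme of purine synthesis, start within chr16:91642000-91652000 (score 778). Secisbp2, needed to make selenoproteins, held chr13:51659000-51669000 (score 857), and the mitochondrial ribosome gene Mrpl38 lay beside the bin at Fbf1.

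The RNA genes of cell 3 were the zinc finger genes Unk and Zc3h7a (chr16:11171000-11181000, score 833), Thoc3 of the mRNA export complex (chr13:54468000-54478000, score 846), Srp68 of the signal recognition particle, and Spats2l (chr1:57826000-57836000, score 818). The nuclear pore gene Seh1l lay beside chr18:67796000-67806000, which covered an end of the centrosome gene Cep192 (score 846). Kpna1, in the bin of cells 1 and 2, was the only gene of the group in cell 1.

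Metabolic and mitochondrial genes formed the largest group, with 18 genes in 18 bins. Cpt1a, which brings long-chain fatty acids into mitochondria and limits the rate of their oxidation, was touched in cell 1 by chr19:3318000-3328000, over the start of the gene (score 846). Acsm2, a medium-chain acyl-CoA synthetase, held chr7:119566000-119576000 in cell 3 (score 909). Adk, which clears adenosine, held chr14:21202000-21212000 (score 786), and Mettl7a1 held chr15:100320000-100330000 (score 824), both in cell 2. Miox, the enzyme of inositol breakdown, lay in the bin with Adm2, and Sptlc1, which starts sphingolipid synthesis, was touched at chr13:53376000-53386000 in cell 3 (score 800).

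The remaining metabolic genes were scattered over cell functions. The respiratory chain was represented by Cyc1 and Ndufa7 in cell 2, the mitochondrial ion exchanger by Letm1 in cell 1 (chr5:33772000-33782000, score 846). Nagpa, which uncovers the lysosomal sorting signal (chr16:5198000-5208000, score 909), and Prdx6b, beside chr2:80282000-80292000 (score 909), were also touched in cell 1. Cell 3 had Galnt10, a glycosyltransferase (chr11:57771000-57781000, score 818), Entpd7 (chr19:43680000-43690000, score 909), Mtmr14, a phosphoinositide phosphatase (chr6:113252000-113262000, score 818), and the adenylate kinase Ak8 (chr2:28768000-28778000, score 833). Cell 2 had Steap1 (chr5:5744000-5754000, score 786) and Dnaja3, a mitochondrial chaperone beside the bin at Coro7.

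Channels and transporters were touched in 8 bins. Abcc3, a pump that moves bile acids and glucuronides out of hepatocytes, held chr11:94355000-94365000 (score 833). Itpr3, a calcium release channel, was touched at chr17:27049000-27059000 (score 818), and Fgf12, which modulates sodium channels, held chr16:28440000-28450000 with the joint lowest score of all gain bins (773). These were bins of cell 2. Cnnm2, a magnesium transporter gene, held chr19:46831000-46841000 in cell 3 (score 857). In cell 4 the genes were the muscle sodium channel Scn4a (chr11:106343000-106353000, score 786) and Atp9b, a P-type ATPase of membranes (chr18:80906000-80916000, score 917).

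Membrane traffic gave 10 genes, none with a score above 867. They were Scamp1 (chr13:94263000-94273000, score 857) and Emc1 in cell 1, and Ap4e1, an adaptor complex subunit (chr2:127029000-127039000, score 800), Coro7 (chr16:4674000-4684000, score 818) and Mospd3 (chr5:137593000-137603000, score 818) in cell 2. Cell 3 had the clathrin adaptor Hip1 (chr5:135494000-135504000, score 867), the synaptotagmin Syt11 (chr3:88749000-88759000, score 846), Enthd1 (chr15:80537000-80547000, score 818) and Ergic1, and cell 4 the vesicle protein Syngr1 (chr15:80112000-80122000, score 833).

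Cytoskeleton, matrix and adhesion genes numbered 11 and included the longest. Cell 3 had bins inside Gpc5, a glypican (chr14:115486000-115496000, score 857), inside Tenm3, a teneurin (chr8:48493000-48503000, score 870), inside the neuronal adhesion gene Cntnap5b (chr1:99987000-99997000, score 923), inside Ank2, a membrane-skeleton adaptor (chr3:127393000-127403000, score 818), and inside Gphn, which encodes gephyrin (chr12:78334000-78344000, score 792). The laminin gene Lama1 (chr17:67698000-67708000, score 812) and Sorbs3, which encodes vinexin (chr14:70200000-70210000, score 818), were touched in cell 2, and Mprip in cell 1 (chr11:59656000-59666000, score 867).

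Cilia and centrosome genes were 6, the axonemal dynein Dnah1 (chr14:31287000-31297000, score 833), Sfi1 (chr11:3185000-3195000, score 846) and Fbf1 in cell 2, and Lrrc6 (chr15:66404000-66414000, score 812), Spef1 and Cep192 in cell 3. Sensory and germ-line genes were Olfr1367, an olfactory receptor gene that lay whole in chr13:21346000-21356000 (cell 1, score 846), Obp2b, an odorant-binding protein gene (chr2:25728000-25738000, cell 2, score 917), Cib2, a gene of hearing, and Samt4, which lay whole in 1 of the 2 gain bins on X (chrX:154476000-154486000, cell 3, score 917). For 11 further protein-coding genes no role is given, among them Pcnx2 (chr8:125773000-125783000, cell 1, score 909), its relative Pcnx3 beside the bin at Map3k11, and Baalc (chr15:38939000-38949000, cell 3, score 818).

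Non-coding genes and pseudogenes alone were touched by 29 gain bins, 4, 12, 10 and 3 in cells 1 to 4. In cell 1, chr6:48340000-48350000 held 3 cysteine tRNA genes inside the long non-coding Gm16630 (score 857). The highest-scoring of cell 2 were chr8:119382000-119392000 around Gm45723 (score 933), which matched Lztr1, and chr7:125268000-125278000 beside Gm51509 (score 909). In cell 3, chr17:3309000-3319000 held the pseudogene Gm6475 and chr12:86810000-86820000 lay beside Gm32806, both with 909. The other bins of cell 3 that touched only non-coding genes or pseudogenes scored 818 to 833. Beside the bin in Gm39242 and Gm42040 on chromosome 8, given above, they lay at chr3:58806000-58816000 (Mindy4b-ps), chr3:144227000-144237000 (Gm46828), chr5:140860000-140870000 (Gm30804), chr14:73947000-73957000 (Cbx3-ps6), chr15:35218000-35228000 (Gm33497 and Gm52178), chr16:29809000-29819000 (Gm46567) and chr18:57509000-57519000 (1700066O22Rik). In cell 2, chr6:3146000-3156000 lay beside a vomeronasal receptor pseudogene (score 875). Apart from the bin at Gm7943, described with the distances to loss bins, the rest scored 778 to 867. They lay at chr2:132205000-132215000 (Gm14051), chr7:71077000-71087000 (Gm36011), chr8:90479000-90489000 (Gm35797), chr11:102957000-102967000 (2410004I01Rik), chr13:54862000-54872000 (Gm40959) and chr14:47913000-47923000 (4930447J18Rik), beside those at Gm46298 and Gm38708. The last of cell 1 was chr18:38090000-38100000 in Gm30093 (score 846). In cell 4 the bins were chr11:102737000-102747000 in Gm39501 (score 867), chr1:24615000-24625000 beside Gm10925 (score 857) and chr1:52284000-52294000 around Gm5975 (score 800).

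No gene lay within 2000 bp of 47 gain bins, 5, 19, 18 and 5 in cells 1 to 4, which had a median score of 833 and a median gap of 15.1 kb to the nearest gene. The bin chr3:138400000-138410000 of cell 3 (score 882) lay 5.46 kb from the alcohol dehydrogenase gene Adh4. The bin chr17:35367000-35377000 of cell 1 (score 857) lay 2.62 kb from H2-Q4, a class I histocompatibility gene. Bins of cell 2 lay 29.4 kb from the retinoid receptor gene Rxrg (chr1:167559000-167569000, score 824) and 29.5 kb from T, which encodes brachyury (chr17:8472000-8482000, score 786). A bin of cell 1 lay 51.1 kb from Gata3, a factor of T cells and other lineages (chr2:9796000-9806000, score 917).

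The most isolated gain bins were 3 that lay over 100 kb from any gene. They were chr7:36365000-36375000 (score 929) and chr7:53147000-53157000 (score 812) of cell 3, at 130 and 156 kb, and chr12:74642000-74652000 of cell 4 (score 833), at 173 kb. The first of these had the highest score of all gain bins between genes. Next in isolation were the bin of cell 2 beside Gm39242 on chromosome 8, at 58.7 kb, and chr5:29891000-29901000 of cell 3 (score 909), at 57.6 kb from Gm1969.

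Of the other bins with no gene within 2000 bp, 1 per cell is given first. In cell 1, chr2:163479000-163489000 scored 917 at 2.44 kb from R3hdml. In cell 2, chr13:118004000-118014000 scored 917 at 22.6 kb from Gm26349. In cell 3, chr7:86645000-86655000 scored 909 at 8.66 kb from the olfactory receptor gene Olfr293. In cell 4, chr17:39979000-39989000 scored 846 at 23.7 kb from Esp38, which encodes an exocrine gland peptide.

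The remaining such bins are given by the protein-coding or other gene nearest to them. In cell 1 they were chr11:23202000-23212000 (Gm24398) and chr17:80009000-80019000 (Hnrnpll), with the score 875 each. In cell 2 the remaining bins scored 773 to 857. They were chr1:133959000-133969000 (Bmncr), chr2:167752000-167762000 (Gm32287), chr3:28976000-28986000 (Gm1527), chr4:35168000-35178000 (Mob3b), chr5:21147000-21157000 (Gm42222), chr5:52500000-52510000 (Lgi2), chr6:107474000-107484000 (Lrrn1), chr7:53599000-53609000 (Gm33990), chr8:112084000-112094000 (Gm36671), chr13:13872000-13882000 (Gm7446), chr15:79837000-79847000 (Npcd), chr19:16943000-16953000 (Prune2) and chrX:91453000-91463000 (Gm8914). That near Lrrn1, a neuronal membrane protein gene, had the score 773, the lowest of all together with Fgf12. In cell 3 they scored 812 to 867. They were chr1:59722000-59732000 (Nop58), chr2:30509000-30519000 (Gm39781), chr3:86973000-86983000 (Cd1d2), chr4:73431000-73441000 (Gm11485), chr5:124986000-124996000 (Gm32529), chr6:137678000-137688000 (Gm38915), chr7:139784000-139794000 (Mir6401), chr8:87602000-87612000 (4933402J07Rik), chr14:68546000-68556000 (Gm41191), chr15:88576000-88586000 (Zdhhc25) and chr17:31790000-31800000 (Gm41563). In cell 4 chr4:153667000-153677000 (Gm42360) and chr11:33042000-33052000 (Rpsa-ps4) scored 818 each. Of bins touching a coding gene, chr6:87756000-87766000 of cell 3 covered an end of Efcc1 (score 833), and chr7:70584000-70594000 of cell 2 an end of Gm44812 (score 842).

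Set against gene lists that were written with earlier results of these data known, 15 list genes were touched by gain bins. Of 46 annotated hepatocyte secreted and metabolic genes 0 were touched, and of 29 liver transcription factors and nuclear receptors 0. Fatty acid and cholesterol metabolism had 2 of 38 (Cpt1a and Srebf2, 5.26%), ubiquitin ligases and deubiquitinases 4 of 55 (Wwp1, Ubr4, Cbl and Rnf144b, 7.27%) and protein and lipid kinases 4 of 79 (Camk1d, Kdr, Atm and Gsk3b, 5.06%). Cell cycle and DNA damage had 3 of 29 (Tfdp1, Tfdp2 and Atm, 10.3%). Markers of other liver cells had 1 of 32 (Kdr), imprinted genes 1 of 52 (Zim1), the long neuronal and cell adhesion genes 2 of 72 (Cntnap5b and Tenm3, 2.78%), and the methylation machinery 0 of 14.

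These shares stand beside 0.722% for all protein-coding genes and 1.62% for those of 100 kb or more. The lists differ in gene length, with medians of 97.5 kb for the ubiquitin list, 96.7 kb for the kinases, 32.1 kb for the cell cycle list and 12.1 kb for the hepatocyte list, and longer genes have more room for a bin. The members are few, and without cell 3 only 5 list genes were left. Loss bins touched 2 of the ubiquitin genes, 4 kinases, 1 cell cycle gene, 9 long neuronal and adhesion genes and 4 markers of other liver cells (Des, Ptprc, Cd68 and Epcam). They also touched 3 imprinted genes, 2 hepatocyte genes, 1 liver factor, 1 gene of fatty acid and cholesterol metabolism and 0 of the methylation machinery. For loss bins the share over all protein-coding genes was 3.4%, and 8.57% at 100 kb or more.

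The nearest loss bin of any cell lay at a median gap of 509 kb from a gain bin, measured between edges. The medians were 599 kb in cell 1, 393 kb in cell 2, 584 kb in cell 3 and 487 kb in cell 4. Of the gain bins, 4 overlapped a loss bin (1.99%), 5 more lay within 10 kb and 38 between 10 and 100 kb. Another 67 (33.3%) were over 1000 kb away. Covered bins are unknown, so no share by position alone was formed to set beside these. The farthest was chr4:82145000-82155000 of cell 3 (score 882), with no loss bin within 11935 kb. Scores did not run with the gap: the median was 815 for overlapping bins, 812 up to 10 kb, 846 from 10 to 100 kb and 833 in both classes beyond.

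Loss bins of the same cell are part of those of any cell, so the gap to them can only be equal or larger. Its medians were 1398, 934, 3005 and 10597 kb in cells 1 to 4. This order runs opposite to the length of the loss list in cells 2 to 4 (426, 184 and 77 loss bins), while cell 1, with 588, did not have the smallest gap. Of the gain bins, 9.95% had a loss bin of their own cell within 100 kb: 2 in cell 1, 14 in cell 2, 4 in cell 3 and 0 in cell 4.

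**Figure D4:**
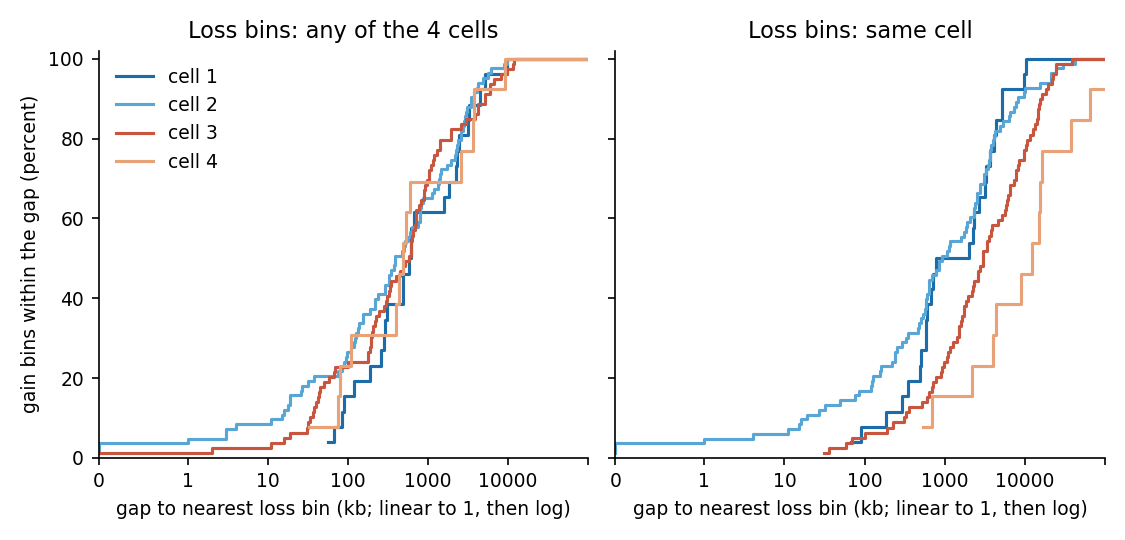
Cumulative percent of the gain bins of each cell (vertical axis) against the gap to the nearest loss bin in kb (horizontal axis, linear to 1 kb and logarithmic beyond), for loss bins of any cell (left) and of the same cell (right). On the left the 4 curves run close together, with medians of 393 to 599 kb, and on the right they separate, with medians of 934 to 10597 kb; 1 bin of cell 4 had no loss bin of its cell on its chromosome.

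Each of the 4 overlaps is a place where opposite calls met. The bin chr3:88712000-88722000 of cell 2 (score 786), which holds the start of Rit1 and an end of Khdc4, an RNA-binding protein gene, shared 6 kb with the loss bin chr3:88708000-88718000. That loss bin was called in all 4 cells, with scores of 417, 91, 500 and 250, so that in cell 2 the scores of 91 and 786 stood side by side at an offset of 4 kb. The Rit1 promoter window printed above lies in the shared part.

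The overlap was larger still at chr2:180003000-180013000, between genes and 11.9 kb from Lsm14b, an RNA-binding protein gene. There cell 2 had a gain of 857 and, at an offset of 1 kb, a loss of 188 in chr2:180002000-180012000, which was also a loss of cell 4 (score 500). The bins shared 9 kb. At chr9:108464000-108474000 (score 818), over an end of Ccdc71, a loss bin of cell 2 (score 600) shared 1 kb. At Dvl3 the gain of cell 3 shared 3 kb with a loss bin of cell 1, chr16:20519000-20529000 (score 600). In 3 of the 4 overlaps gain and loss came from the same cell, cell 2.

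Of the 5 gain bins at gaps of up to 10 kb, those at Usp46 and Gm7943 had a near loss bin of their own cell. At Speg, Son and Rab11fip3 the near loss bin came from another cell. A loss bin of cell 2 (score 273) ended 1 kb from the gain at Usp46, and one of that cell (score 500) 2 kb from the gain of cell 3 at Speg. Loss bins lay 3 kb from the gains of cell 2 at Son with Gart (cell 1, score 562) and at Rab11fip3 (cell 3, score 412). The gain chr8:73425000-73435000 of cell 2, beside the pseudogene Gm7943 (score 882), lay 4 kb from chr8:73411000-73421000, a loss of all 4 cells with scores of 652, 625, 174 and 529. Of the 15 loss bins called in all 4 cells, 2 thus had a gain bin within 20 kb, both of cell 2. Another gain bin, at Syt11 in cell 3, was 31 kb from the loss bin at Rit1.

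**Figure D5:**
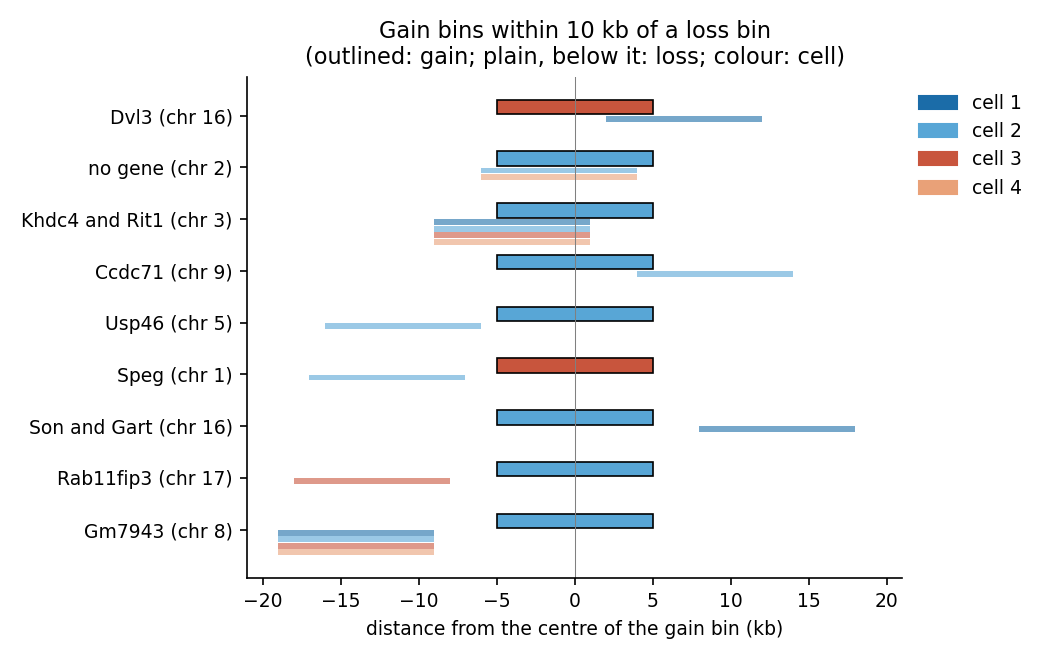
Position of gain bins (outlined) and of the loss bins next to them (plain), in kb from the centre of the gain bin (horizontal axis), for the 9 gain bins within 10 kb of a loss bin (vertical axis, named by gene and chromosome), coloured by cell. In 4 rows the bars overlap, by 1 to 9 kb, and at Khdc4 with Rit1 and at Gm7943 the loss bar is there in all 4 cells.

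Gain and loss also met within 1 gene. Of the 226 touched genes, 22 were also touched by a loss bin, 20 of them protein-coding, at 18 gain bins of cells 2 (10 bins) and 3 (8 bins). This is 9.73% of the genes touched by gain bins, beside 2.09% of all genes touched by loss bins. It is 13.4% of the protein-coding ones, beside 3.4%, and 6 of 37 (16.2%) of those of 100 kb or more, beside 8.57%. Both directions can be called only in covered bins, which are unknown, so these shares are a description. In 10 of the genes a gain and a loss came from the same cell. Tenm3 had the gain of cell 3 at 870 and 6 loss calls in cells 1, 2 and 3 with scores of 353 to 643, the nearest 714 kb away. Ergic1 had its gain of cell 3 (score 812) at 59 kb from a loss bin of cells 3 and 4 (scores 364 and 83). In Cux1 the gain of cell 2 (score 917) lay 122 kb from a loss bin of the same cell (score 467) and 238 kb from one of cell 1 (score 353). In Rere a loss bin of cells 1 and 2 (scores 542 and 594) lay 75 kb from the gain, and in Grb2 a loss of cell 1 with the low score of 182 lay 16 kb from the gain of cell 3 (score 824). Galnt10 had losses in cells 1 and 2 (scores 556 and 545), the nearer at 34 kb, and Gpc5 a loss of cell 2 (score 455) at 38 kb.

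Compared with loss bins of the same cell, gain bins lay farther from the loss bins of the other cells. The mean gap was 1739 kb for gain and 1526 kb for loss bins in cell 1, 1727 and 913 kb in cell 2, 1593 and 517 kb in cell 3, and 1685 and 119 kb in cell 4. The share within 100 kb was lower for gain bins in 12 of 12 ordered pairs of cells, and the median gap larger in 10 of 12. These pairs reuse the same 4 loss lists and are not separate observations. Loss bins shared by cells count there at a gap of 0: of the 77 loss bins of cell 4, 43 overlapped one of cell 1. The pair counts were not made without shared bins. The 4 cells share 1 reference pool and many loss bins recur between cells, so this is given as a description of the same calls. The measure was among the 5 over which p-values were adjusted (two-sided exact sign-flip permutation test, n = 4 cells, adjusted p = 0.312), and nothing is read from that p. With loss bins that no other cell called, the mean difference was 351 kb in place of 917 kb, and with medians per cell it was 471 kb. It was 1503 kb without cell 1 and 612 kb without cell 2.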

How the data were processed

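Single hepatocytes (4 libraries, 1 per cell) were compared with a liver pool by the authors, who deposited 2 lists per cell, of bins called less and more methylated than the pool, each with a deposited score. Per the submitters' processing notes, which give no roles, the tools were Bismark 0.7.6, Bowtie2 2.0.0, CASAVA 1.4, cutadapt 1.0 and Trim Galore 0.2.2, and the build was mm10. The calling rule, the definition of the score and the depth are not given in the sources used here. Only calls are listed, so no rate per bin tested could be formed.

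Coordinates are those of the lists. Genes came from a RefSeq table of the same build (GRCm38.p6, 47283 of 49997 genes on the 19 chromosomes used) without strand or exons, and promoter sequences from RefSeq, of which the 250 bases before each start were used. Chromosome 10 was not analysed here, nor promoters of chromosome 18. Bins were placed by midpoint (1000 bp around gene ends), genes were touched within 2000 bp, and gaps were measured between edges. Intervals are exact Clopper-Pearson 95% intervals. Gain and loss bins were compared over cells by two-sided exact sign-flip permutation tests with Benjamini-Hochberg adjustment over 5 measures. Functions were tested on simulated positions. GC content and MseI sites of whole bins, planned in case a genome was used, were not computed, and CpG sites were counted in promoter windows only. Python 3.11.15, pandas 2.3.3 and scipy 1.17.1 were used. Any touched gene could be named: bins called in more than 1 cell, with the 5 highest scores of a cell, nearest to loss bins, at gene ends or over list genes were to be given in full, the rest by role. The gene of 1 gain bin of cell 2 is not reported here. Members and lists were chosen with earlier results of these data known.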

Additional observations from a re-analysis of the deposited data

Results flagged for a closer look

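Cell 1 stood apart in score. Its median of 864.5 differed from the 833 that the other 3 cells shared, and 30.8% of its gain bins scored 900 or more, against 15.4 to 17.7% in the others. Both were picked out because the gap to the nearest cell was large for the range of the 4 cells. They are 2 views of the same scores, since no gain bin of cell 1 scored below 846. Among bins of 846 or more, 8 of 26 reached 900 for cell 1 (30.8%), against 13 of 29 for cell 2 (44.8%), 14 of 31 for cell 3 (45.2%) and 2 of 5 for cell 4, so cell 1 was not higher there. In all, 18 measures were examined in this way, and chance picks about 1 in 20 where values do not tie. For the median score the other 3 cells tied at 833, so any other value of cell 1 would have been picked out.

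The number of genes around gain bins, relative to loss bins, went opposite ways with the carriers. Gain bins had more genes within 500 kb than loss bins in both cells with salmon DNA (by 5.87 in cell 1 and 1.31 in cell 2) and fewer in both cells with tRNA cDNA (-1.53 in cell 3 and -5.78 in cell 4), a difference of 7.24 genes between carriers. Of the 5 measures compared between gain and loss bins, this was the only one with opposite signs by carrier. The gap to loss bins of the other cells was larger for gain bins in every cell. The excess was 213 and 814 kb with salmon DNA and 1075 and 1565 kb with tRNA cDNA. For gain bins the gap itself was 1739, 1727, 1593 and 1685 kb in cells 1 to 4. For loss bins it fell from 1526 to 913, 517 and 119 kb, in the order of the loss lists (588, 426, 184 and 77 bins). The other 3 measures did not separate by carrier. The difference in genes was not tested, since 2 cells against 2 cannot give an exact p under 0.333. With 2 cells per carrier and 5 measures looked at, a split by carrier cannot be told apart from differences between single cells.

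Outside the width rule, the gain lists held 5 short entries of 100 bp. They lay at chr2:180181760-180181860 (cell 1, score 850), chr9:123273338-123273438 (cells 2 and 4, scores 818 and 833), and in cell 3 at chr4:154848066-154848166 (score 909) and chr15:102939759-102939859 (score 846).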

How the results depend on the processing

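Over 12 results and 76 alternatives, 58 alternatives were labelled the same, 12 moved and 6 reversed. The label went by the spread over cells, by direction in the comparison with loss bins, or for counts by the ratio to the main count. By that ratio, 331 touched genes with a flank of 10000 bp still counted as the same as 226. The share of gain bins in genes was 52.2% with protein-coding genes only. Gene ends took 37.3% of gain bins when any overlap of the bin counted and 19.4% with ends of 2000 bp. The median gap to a loss bin was 2231 kb for loss bins of the same cell and 610 kb for loss bins called in 1 cell only, an alternative added after the data were seen.

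Leaving out 1 cell gave 118 (without cell 2; 122 without cell 3) to 188 gain bins, 125 (without cell 2; 144 without cell 3) to 216 touched genes, 5 (without cell 3) to 15 list genes and a median gap of 516.5 to 788 kb (without cell 1). In the comparison with loss bins, medians in place of means turned the difference in genes within 500 kb (0.12) and in CpG per window (1.5). Leaving out 1 cell gave differences of -6.74 to 3.49 percentage points in genes, -2.0 to 1.88 genes within 500 kb and -1.71 to 2.40 CpG; the positive values came without cell 4 and, for genes within 500 kb, also without cell 3 (0.47). No adjusted p of an exact test could pass 0.05 in any of these. No paired analysis was possible because the pool has no list of its own here to pair with a cell. This concerns cells against pool only; the sign-flip test pairs gain and loss bins of the same cell. Depth behind each score is unknown, which limits every count.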

Other observations

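At 3 of the 4 positions of short gain entries, an entry with the same start and end was also called as a loss, which no bin of full width was (full-width bins of opposite direction overlapped only at an offset). At chr9:123273338-123273438, cells 2 and 4 had gains (818 and 833), while cells 1, 2 and 3 had losses there (419, 447 and 583), so that cell 2 held both. At chr4:154848066-154848166 cell 3 had a gain of 909 and cell 1 a loss of 167, and at chr15:102939759-102939859 cell 3 had a gain of 846 and cell 4 a loss of 308. The coordinates of these entries lie off the 1 kb grid on which all bins of full width start. The sources used here do not say what the short entries stand for.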
